A study of Mus musculus with 3 samples.

Results

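Interferon-responsive microglia were defined here as sorted hippocampal cells in which at least 4 of 8 interferon-induced genes were detected. The genes were Ifit1, Ifit2, Ifit3, Isg15, Irf7, Oasl2, Rtp4 and Usp18. The cells were thus chosen by measured counts of these genes, which describe them and test nothing. To enter, a cell needed 1000 or more UMIs (unique molecular identifiers, which count captured RNA molecules), 500 or more genes and no more than 10% of its UMIs from mitochondrial genes. They also had to hold fewer than 20 UMIs summed over the MHC class II genes H2-Aa, H2-Ab1 and H2-Eb1. The rule found 74 cells in run 1, 38 in run 2 and 43 in run 3, which makes 155 of 19791 cells that passed the filters on depth and mitochondrial UMIs (0.783%, exact 95% binomial interval 0.665 to 0.916%). They were described against the 19046 passing cells with 0 or 1 of the 8 genes (6690, 6501 and 5855 in runs 1, 2 and 3), called comparison cells below. A further 476 cells with 2 or 3 of the 8 genes (191, 151 and 134) lay between them.

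The cells came from the bilateral hippocampi of mice of 1 genotype, Cx3cr1CreERT2/+; Rosa26tdTomato/+; NestinTK-eGFP/+. Every animal received tamoxifen at 100 mg/kg for 4 days, so that Cre driven by Cx3cr1, a gene used by microglia and by related macrophages, switched on tdTomato, and viable tdTomato+ cells were collected after PBS perfusion and magnetic removal of myelin. The series describes 12 animals, 6 male and 6 female, does not assign them to the 3 runs, gives no age and has no second treatment or genotype. Each comparison below is therefore between cells of the same runs, with n = 3 runs. It is not stated that the runs come from different animals, so the spread between runs may be technical. The gene tests of interferon-responsive cells below pooled this spread over all genes. A small p-value there does not mean that the runs of that gene lay close together.

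Type I interferons bind a receptor made of Ifnar1 and Ifnar2, and the kinases behind it phosphorylate STAT transcription factors. With IRF9 these form a complex that binds the interferon-stimulated response element, a pair of GAAA-like half-sites, in the promoters of antiviral genes. A small population of microglia with high levels of such genes is known from single-cell studies of the mouse brain, and macrophages at the borders of the brain can carry the same transcripts.

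The promoters of 4 rule genes and of 4 genes outside the rule are shown. They were searched for a string that resembles the element read by the receptor's transcription factor complex. All but 1 held a match. A window without a match does not show that the gene lacks the element, since other forms and positions were not searched. Each run is the 180 bases before the annotated transcript start in RefSeq (GRCm38.p6), 5′ to 3′ on the gene's strand, with every match to GAAANNGAAA on either strand in capitals (on the reverse strand a match reads TTTCNNTTTC). Ifit1 lies at chr19:34640709-34640888 (+), Ifit3 at chr19:34583349-34583528 (+), Isg15 at chr4:156200819-156200998 (-), Irf7 at chr7:141266425-141266604 (-), Bst2 at chr8:71537473-71537652 (-), B2m at chr2:122147507-122147686 (+), Gbp2 at chr3:142620483-142620662 (+) and Irgm1 at chr11:48871421-48871600 (-).
Ifit1: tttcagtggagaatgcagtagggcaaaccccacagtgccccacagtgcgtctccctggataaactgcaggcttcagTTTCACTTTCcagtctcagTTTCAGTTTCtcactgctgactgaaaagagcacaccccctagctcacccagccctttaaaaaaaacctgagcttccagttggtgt
Ifit3: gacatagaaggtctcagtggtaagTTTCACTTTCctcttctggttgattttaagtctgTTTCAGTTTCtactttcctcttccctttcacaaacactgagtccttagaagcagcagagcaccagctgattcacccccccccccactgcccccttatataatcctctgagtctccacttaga
Isg15: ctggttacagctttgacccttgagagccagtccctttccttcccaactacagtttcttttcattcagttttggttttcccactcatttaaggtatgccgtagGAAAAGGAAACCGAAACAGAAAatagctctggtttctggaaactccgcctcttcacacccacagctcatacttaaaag
Irf7: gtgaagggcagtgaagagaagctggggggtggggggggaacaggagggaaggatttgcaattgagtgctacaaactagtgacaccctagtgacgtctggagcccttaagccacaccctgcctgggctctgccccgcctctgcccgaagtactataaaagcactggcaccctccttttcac
Bst2: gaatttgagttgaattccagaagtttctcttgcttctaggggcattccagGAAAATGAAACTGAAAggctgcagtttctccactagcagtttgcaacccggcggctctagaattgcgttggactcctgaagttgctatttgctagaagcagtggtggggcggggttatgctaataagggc
B2m: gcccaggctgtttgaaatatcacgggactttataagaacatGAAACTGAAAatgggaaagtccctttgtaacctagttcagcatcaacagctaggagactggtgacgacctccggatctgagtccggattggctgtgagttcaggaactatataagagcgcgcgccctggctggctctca
Gbp2: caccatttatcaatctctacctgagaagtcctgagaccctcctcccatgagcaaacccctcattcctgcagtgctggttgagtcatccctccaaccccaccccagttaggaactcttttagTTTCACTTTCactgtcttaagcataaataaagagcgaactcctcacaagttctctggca
Irgm1: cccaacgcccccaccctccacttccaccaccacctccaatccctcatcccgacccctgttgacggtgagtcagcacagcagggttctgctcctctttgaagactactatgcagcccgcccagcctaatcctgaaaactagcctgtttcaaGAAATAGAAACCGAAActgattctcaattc

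Ifit1 and Ifit3 each held 2 separate matches, in Isg15 3 matches overlapped, and in Bst2 and Irgm1 2 matches overlapped. B2m and Gbp2 held 1 match each, and the Irf7 window held none. In windows from 250 bases before to 50 after the start, 1079 of 27025 mouse promoters (3.99%) held a match, as did 343 of 8853 matched promoters of genes tested below (3.87%). Among genes higher in interferon-responsive cells, 66 of 297 with a promoter in the table held one (22.2%), against 4 of 97 genes that were lower (4.12%). Of the lists described below, 10 of 11 promoters of GTPase genes (90.9%), 7 of 9 of p200 genes (77.8%), 19 of 42 of antiviral genes (45.2%), 5 of 20 of class I genes (25%) and 0 of 12 of homeostatic microglial genes held a match. A match is a string of letters, not a measured binding site, and these lists were chosen with results of these data known. Rtp4 and Usp18 were not among the promoters used, and 3 of the other 6 rule genes held a match.

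The 8 rule genes are antiviral proteins or regulators of the response, and their values describe the cells without testing anything. The 3 Ifit genes lie together on chromosome 19 (GENCODE M21 genes on GRCm38): Ifit2 at chr19:34550694-34576419, Ifit3 at chr19:34583531-34588731 and Ifit1 at chr19:34640871-34650009. Isg15 lies at chr4:156199424-156200818, Irf7 at chr7:141262706-141266481, Oasl2 at chr5:114896936-114912234, Rtp4 at chr16:23520291-23614222 and Usp18 at chr6:121245906-121270917. All 8 are protein-coding genes. Rtp4, a chaperone-like transmembrane protein, was detected in 94.2% of the interferon-responsive cells and in 5.92% of the comparison cells, and summed counts put it at 375, 475 and 501 CPM (UMIs scaled to a total of 1000000 per population) in runs 1, 2 and 3. It was the rule gene with the widest background. Ifit3, whose protein family binds viral RNA, was at 566, 415 and 735 CPM and was detected in 81.9% against 1.25% of cells. Isg15, a ubiquitin-like protein attached to other proteins, was at 464, 344 and 315 CPM and was detected in 70.3% against 1.85%.

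Oasl2, a relative of the oligoadenylate synthetases, was at 207, 306 and 282 CPM (63.9% against 0.457% of cells). Irf7, a transcription factor that amplifies interferon production, was at 217, 382 and 181 CPM (62.6% against 0.782%). Usp18, a protease that removes Isg15 and restrains the receptor, was at 127, 142 and 244 CPM (50.3% against 0.788%). Ifit2 was at 285, 191 and 396 CPM (55.5% against 0.420%) and Ifit1 at 271, 137 and 258 CPM (47.1% against 0.341%). No rule gene was thus seen in all of the cells, and the runs did not keep 1 order from gene to gene. The comparison cells came from the same droplets' libraries, and their mean levels lay between 0.947 CPM (Ifit1) and 18.8 CPM (Rtp4).

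**Figure D1:**
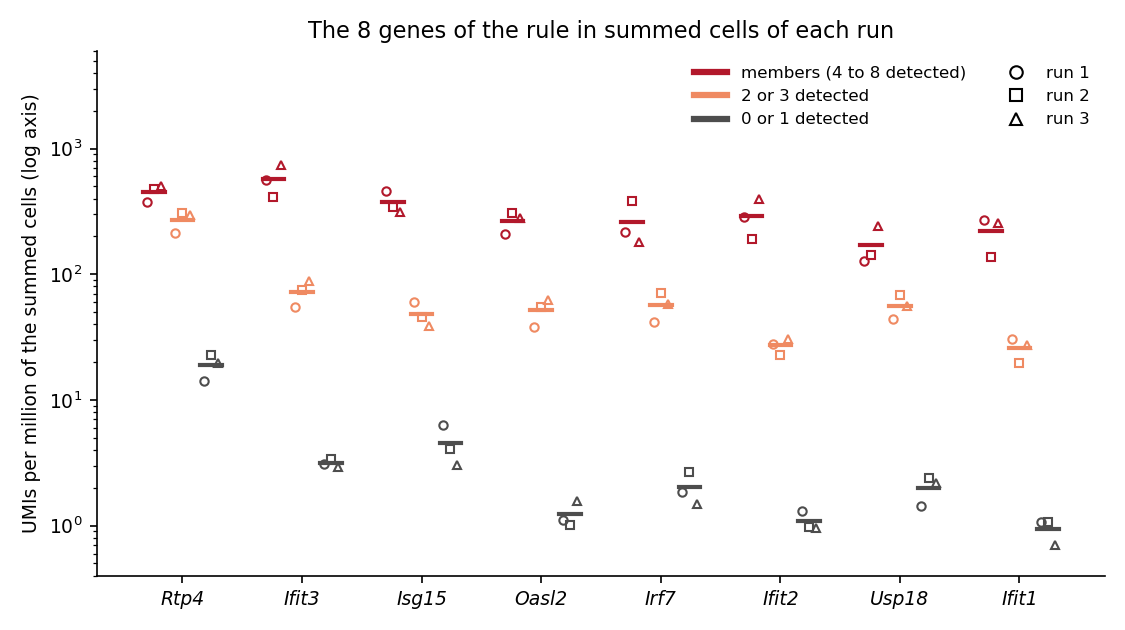
Level of each of the 8 rule genes in runs 1 to 3, in CPM on a log axis, for interferon-responsive cells, cells with 2 or 3 of the genes and cells with 0 or 1; points are runs and short lines their means. The 3 populations are separated by construction, and the points show the spread between runs, for example 137 to 271 CPM for Ifit1 in interferon-responsive cells.

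The threshold cut through a continuous range. Of the 155 cells, 62 had 4 of the genes, 39 had 5, 23 had 6, 14 had 7 and 17 had all 8. Just outside, 105 cells under the class II limit had 3. Cells with 4 held a median of 6 UMIs over the 8 genes and cells with 3 a median of 4. Ifit2 was detected in 40.3% of the cells with 4 genes and in 17.1% of those with 3, and Ifit3 in 67.7% and 41.9%, whereas Usp18 was detected in 22.6% and 31.4%. Cells were also ordered by 4 of the rule genes and the remaining 4 counted, which describes the rule's own genes and tests nothing. When cells were ordered by Ifit1, Ifit3, Irf7 and Rtp4 alone, at least 2 of the remaining 4 genes were detected in 0.126% of 17488 cells with 0, in 2.08% of 1829 with 1, in 18.3% of 241 with 2, in 51.8% of 85 with 3, and in 88.2% of 34 with all 4 (exact 95% interval 72.5 to 96.7%, counting error only). In the reverse order the share went from 0.836% of 18532 cells with 0 to 96.2% of 26 with all 4. Depth was not held equal here. Its median was 3787 UMIs in passing cells with 0 of the 8 and 6740 in those with all 8.

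In run 1, 1.06% of passing cells were interferon-responsive (exact 95% binomial limits 0.832 and 1.33%). The share was 0.565% in run 2 (0.400 and 0.775%) and 0.707% in run 3 (0.512 and 0.952%), and over runs it averaged 0.777% ± 0.254 (SD, n = 3). Run 1 lay above run 2 beyond counting error. Run 1 was also the deepest run: the interferon-responsive cells had a median of 5387.5 UMIs there, 3910.5 in run 2 and 4548 in run 3, against 4404, 3424 and 3677 UMIs in comparison cells. When every cell was thinned at random to 2000 UMIs, which left out 91, 386 and 169 shallower cells, 23, 20 and 20 cells still met the rule. The shares were then 0.333% (0.211 to 0.5%), 0.316% (0.193 to 0.487%) and 0.338% (0.207 to 0.522%), a mean of 0.329% ± 0.0119 (SD, n = 3). After thinning the rule found fewer cells, and the intervals of the 3 runs overlapped, on 23, 20 and 20 cells. The part of depth in the difference between runs was not tested. Intervals cover counting error only.

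**Figure D2:**
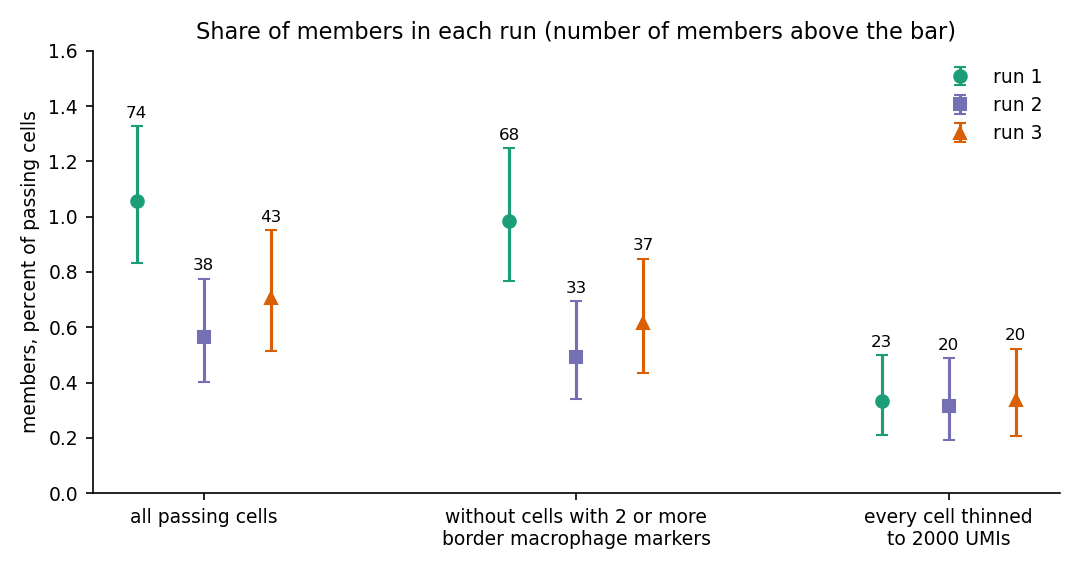
Share of passing cells that met the rule, in percent, per run, at full depth, without cells holding 2 border macrophage markers and after thinning to 2000 UMIs per cell; the number of cells stands above each bar, points are runs and bars exact 95% binomial intervals. Run 1 stands at 1.06% at full depth, and the 3 runs lie between 0.316% and 0.338% after thinning.

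The label was checked against markers of microglia and of the other cells a Cx3cr1 reporter or a sort could include. The 17 homeostatic microglial genes summed to 78657 to 80456 CPM per run in interferon-responsive cells, against 95511 to 115966 in comparison cells. Border macrophage markers (Mrc1, Pf4, Lyve1, Cd163, F13a1, Cbr2, Ms4a7, Folr2) summed to 852 to 1471 CPM against 22.7 to 69.0. The 7 monocyte markers summed to 33.4, 36.9 and 1666 CPM, the last in run 2, against 7.40 to 11.3. All 8 T and NK cell markers were at 0, and so were 6 of 8 neutrophil markers and 4 of 6 B cell markers. In 155 cells a 0 allows a share of up to 1.94% of cells with a UMI for each gene. The B cell markers Cd79b and Ighm were present, and the list summed to 287 to 350 CPM against 303 to 393. At least 2 B cell markers were detected in 14.2% of interferon-responsive and 13.2% of comparison cells. Such cells are among those left out below as holding 2 markers of another class. That setting kept 5094 of the 6690 comparison cells of run 1. Astrocyte markers summed to 219 to 298 CPM against 236 to 374, but cells with at least 2 of them were more frequent among the interferon-responsive cells, at 10.8%, 7.89% and 2.33% in runs 1, 2 and 3 against 5.71%, 3.01% and 2.00%. For oligodendrocyte markers such cells were 9.03% of the 155 against 4.62% of the comparison cells. No doublet caller was run here. Barcodes with Xist together with Y-linked UMIs, a pair that points to RNA of more than 1 animal, were 8.11%, 5.26% and 2.33% of the interferon-responsive cells against 3.09%, 1.57% and 2.77% of the comparison cells. The part of cells holding these transcripts in the results was not tested beyond leaving them out.

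At least 2 of the 8 border macrophage markers were detected in 17 of the 155 cells (11%; 6, 5 and 6 per run), against 86 of 19046 comparison cells (0.452%). Read the other way, 17 of the 132 cells with 2 or more border markers under the class II limit met the rule (12.9%, exact 95% interval 7.68 to 19.8%), against 138 of 19545 other cells (0.706%), with median depths of 5082.5 and 3832 UMIs. The 17 and the other 138 cells were split by border markers, so a marker such as Pf4, a chemokine of border macrophages, differs by construction (2627 ± 715 against 0.817 CPM; SD, n = 3). Of genes not used for the split, Apoe, a lipid carrier, was at 43355 ± 18296 against 1282 ± 32.5 CPM. P2ry12, the microglial receptor for ADP, was at 1925, 410 and 103 CPM against 2755, 3881 and 3161. Tmem119, a microglial membrane protein, was at 347 ± 496 against 1970 ± 474. Bst2, an interferon-induced antiviral gene, overlapped between them, at 1044 ± 204 against 904 ± 44.4. By these markers the 138 cells are closer to the label microglia than the 17. At least 2 monocyte markers were detected in 2 of the 155 cells (1.29%), against 16 of 19046 comparison cells (0.0840%). Of the 7 markers, Ly6c2, Chil3, Vcan and Fn1 were too low to be tested. Monocyte markers remained among the 138. All 3 monocyte genes tested below were higher in the 155 cells. Plac8 (5.37, log2, adjusted p 9.29e-12, edgeR) and S100a4 (3.18, adjusted p 0.00236) were also higher without the 17. Both were high in run 2, Plac8 at 28.7, 650 and 28.7 CPM and S100a4 at 4.10, 404 and 0 CPM in runs 1, 2 and 3, and with run 2 left out Plac8 kept its call (3.63, adjusted p 8.8e-06) and S100a4 did not (-0.38, adjusted p 0.984). These groups were built from marker genes and need not match the cell types of the study.

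**Figure D3:**
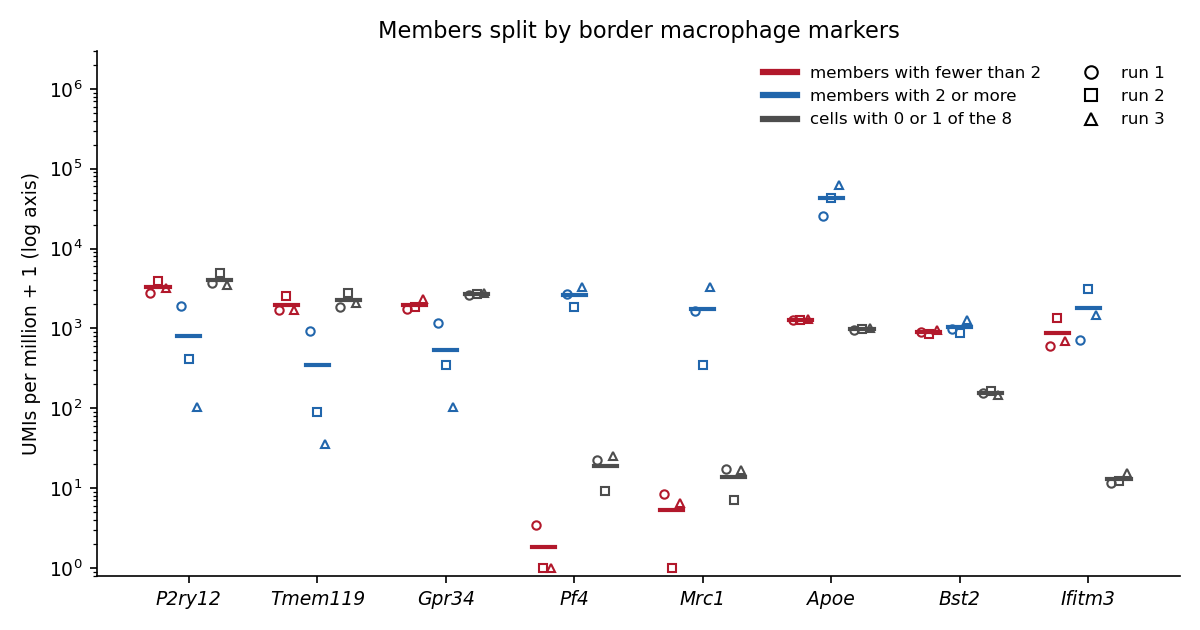
Levels in CPM + 1 (log axis) of microglial, border macrophage and interferon-induced genes in interferon-responsive cells with at least 2 border macrophage markers, in the other interferon-responsive cells and in comparison cells; points are runs and short lines their means. P2ry12 and Tmem119 stand higher in the 138 cells without these markers and Pf4 (1 of the markers that split them) and Apoe in the 17 cells with them, while Bst2 overlaps between them, at 1044 ± 204 and 904 ± 44.4 CPM (SD, n = 3).

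Genes outside the rule were then compared between interferon-responsive and comparison cells, after summing UMIs within each run and population. Of 11447 genes, 384 were higher (3.35%) and 138 lower (1.21%) by edgeR's quasi-likelihood test, with the run as a block and a threshold of 0.05 on p-values adjusted over all genes by the Benjamini-Hochberg method. Without cells holding 2 border markers, 257 of 11355 were higher (2.26%) and 63 lower (0.555%), and 242 of the 384 were called higher again among the 334 still tested. Without the run as a block, 262 were higher and 2 lower, and 226 were higher and 47 lower when run 1 was left out. Of the 384, 172 were also called in each of the 3 fits that left out 1 run, as were 18 of the 138. The spread was estimated once for all genes, and 37 of the 384 had at least 50% of their UMIs in a single interferon-responsive cell. Changes below are log2 differences with the fit's standard error. Over all genes tested the median difference was -0.07. A gene near 0 in comparison cells can enter the test through the interferon-responsive cells, and can then hardly be called lower. In the lists below, 6 of 43 antiviral, 2 of 8 p200, 2 of 11 GTPase and 1 of 14 surface genes tested were that low. They stood under 1 CPM in the comparison cells of every run.

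The signalling pathway itself was higher at its transcription factors and not at its receptors. Stat2, a subunit of the complex, stood at 121, 92.9 and 191 CPM in the interferon-responsive cells of runs 1, 2 and 3 and at 18.4, 14.3 and 18.3 in comparison cells (2.95 ± 0.22, adjusted p 7.26e-37, edgeR). Irf9, which carries the complex to DNA, stood at 86.2, 60.1 and 129 CPM against 50.5, 46.4 and 47.6, a smaller rise (0.92 ± 0.20, adjusted p 0.000252). The 2 populations did not overlap for either gene. Ifngr1, a chain of the interferon gamma receptor, was lower, at 909, 852 and 821 CPM against 1172, 1350 and 1163 (-0.50 ± 0.11, adjusted p 0.000205). Of the 11 receptor, kinase and STAT genes tested, 3 rose, 1 fell and 7, among them Ifnar1 (0.18) and Ifnar2 (-0.13), did not pass the test. The median of the 11 was -0.03. Of 7 interferon regulatory factors, 2 rose, and 1 did without run 3. Irf1, a transcription factor that interferons induce, was at 111, 137 and 76.4 CPM against 34.1, 42.4 and 35.3 (1.57 ± 0.19, adjusted p 4.86e-14), while Irf8, which microglia need for their identity, had a difference of 0.04. Socs1, an inhibitor of the receptor kinases, was at 30.8, 21.9 and 47.8 CPM against 6.72, 11 and 9.01 (1.98 ± 0.45, adjusted p 0.000608), the only one of 6 feedback genes that passed, and it did not pass without run 1.

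No interferon gene had enough UMIs to be tested. Of the 19 interferon genes in the files, Ifnb1 had 1 UMI in 1 interferon-responsive cell and the other 18 had none, which allows up to 1.94% of these cells with a UMI of each.

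Sensors of foreign nucleic acid rose in part. Zbp1, a sensor of unusual double-stranded nucleic acid, was at 84.1, 126 and 105 CPM against 0.729, 0.893 and 1.23 (6.78 ± 0.66, adjusted p 4.01e-22, edgeR). Ddx58, which encodes the RNA sensor RIG-I, was at 115, 98.3 and 134 CPM against 23.7, 16.6 and 24.4 (2.41 ± 0.21, adjusted p 6.11e-27). Ifih1, which encodes the related sensor MDA5, was at 82.1, 43.7 and 66.9 CPM against 16.2, 12.7 and 16.3 (2.14 ± 0.31, adjusted p 3.31e-10). Of the 13 sensor and adaptor genes tested 5 rose and none fell, with a median of 0.16. Mavs and Tmem173, the adaptors behind these sensors, and Aim2 (0.16, adjusted p 0.845) did not pass.

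Antiviral effectors rose nearly throughout. Of 43 genes tested, 37 rose and none fell, with a median of 2.85. Of the 43, 6 were under 1 CPM in the comparison cells of every run and could hardly have fallen. Without cells holding 2 border markers 34 of 41 rose, with a median of 2.57. Ifitm3, which blocks virus entry at endosomal membranes, was at 616, 1688 and 807 CPM against 10.7, 11.1 and 14.6 (6.29 ± 0.14) and was detected in 74.8% against 3.07% of cells. Bst2, the tether that holds budding virus at the cell surface, was at 917, 863 and 993 CPM against 155, 162 and 146 (2.58 ± 0.12, adjusted p 1.4e-105, edgeR), in 89.7% against 43.4% of cells. Its promoter is among those printed above. Slfn5, a member of the Schlafen family, was at 172, 148 and 267 CPM against 1.84, 1.96 and 3.37 (6.37 ± 0.39, adjusted p 2.88e-56), in 51.0% against 0.877% of cells. Rsad2, which encodes viperin, was less even between runs, at 105, 92.9 and 353 CPM against 0.475, 0.638 and 0.919 (7.88 ± 0.60, adjusted p 1.53e-36), and was seen in 26.5% of the cells, 1 of which held 27.5% of its UMIs. Mx1, a dynamin-like GTPase, was at 107, 71.0 and 186 CPM against 2.09, 2.55 and 2.49 (5.61 ± 0.52, adjusted p 2.23e-24). Eif2ak2, the kinase PKR that halts translation, rose by 2.25 ± 0.17. Ifit3b (8.33 ± 0.65) is a near copy of the rule gene Ifit3, and how reads shared by such copies were counted is not stated, so its rise is not independent of the rule.

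**Figure D4:**
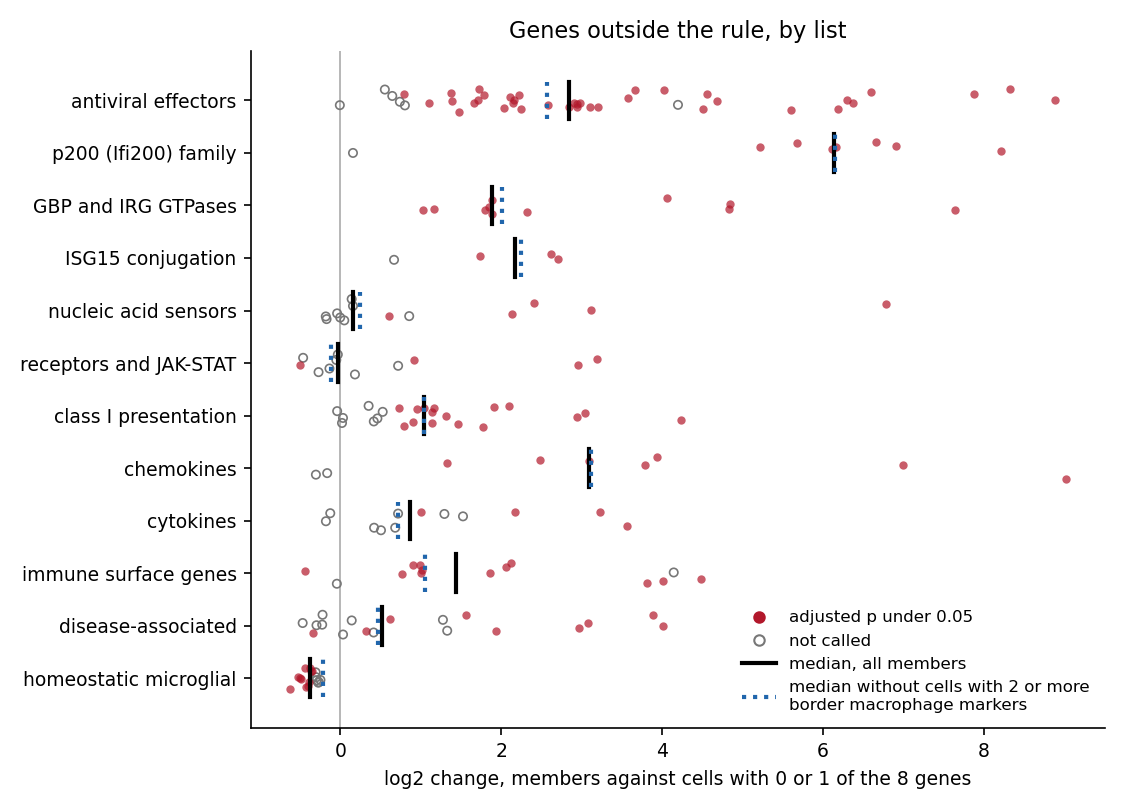
Fitted log2 difference between interferon-responsive and comparison cells for the genes of each functional list; each point is a gene, filled where it passed the test, black lines are medians and dotted lines medians without cells holding 2 border macrophage markers. The antiviral list centres on 2.85, the class I list on 1.04 and the homeostatic microglial list on -0.37.

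Of the 4 genes of Isg15 conjugation tested, 3 rose. Herc6, the ligase for Isg15 in mice, was at 152, 142 and 282 CPM against 31.5, 21.5 and 30.5 (2.70 ± 0.17), and Ube2l6, the conjugating enzyme, was at 53.3, 54.6 and 52.5 against 7.54, 11.6 and 8.05 (2.62 ± 0.39, adjusted p 2.65e-09, edgeR). Uba7, the activating enzyme, did not pass (0.67, adjusted p 0.124).

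In the p200 family, whose proteins bind DNA through HIN domains, 7 of 8 genes tested rose, with a median of 6.14. Ifi204 was at 275, 246 and 306 CPM against 4.05, 2.64 and 4.90 (6.16 ± 0.21, adjusted p 5.2e-175, edgeR), and Ifi207 at 107, 87.4 and 138 against 1.27, 0.468 and 1.09 (6.91 ± 0.65). Members of this family are similar in sequence, so reads may be divided among them. All 11 guanylate-binding and immunity-related GTPases tested rose (median 1.89), and 10 of 11 did without the cells holding 2 border markers. Irgm1, which regulates these GTPases at membranes, was at 191, 98.3 and 138 CPM against 34.8, 23.6 and 30.4 (2.32 ± 0.18, adjusted p 4.52e-37). Gbp2, which acts on the vacuoles of intracellular pathogens, was at 30.8, 175 and 90.7 CPM against 4.50, 5.78 and 4.33 (4.06 ± 0.46, adjusted p 3.74e-16). Its level varied nearly as much between runs as its mean, yet every run lay above the comparison cells.

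Genes of MHC class I presentation rose by less but widely. Of 23 tested, 16 rose and none fell, with a median of 1.04, and the count was 16 without cells holding 2 border markers and 8 of 22 in cells thinned to 2000 UMIs. H2-K1, a class I heavy chain, was at 864, 1420 and 955 CPM against 340, 441 and 375 (1.46 ± 0.11, adjusted p 2.72e-37, edgeR). B2m, the light chain, was at 2033, 1688 and 1810 CPM against 1192, 979 and 1160 (0.73 ± 0.10, adjusted p 9.21e-11). Tap1, which carries peptides to class I, was at 123, 257 and 138 CPM against 38.7, 52.5 and 39.6 (1.91 ± 0.17, adjusted p 1.11e-25), and Psmb8, an immunoproteasome subunit, was at 369, 546 and 320 against 214, 231 and 201 (0.90 ± 0.13, adjusted p 1.04e-10). Nlrc5, the transactivator of class I genes, rose from about 1 CPM to 12.3, 5.46 and 47.8 CPM (4.23 ± 0.88, adjusted p 7.75e-05, edgeR). Its level rested on few UMIs, 1 in run 2 and 10 in run 3. Calr (0.02) and Canx (-0.04), the general chaperones of the endoplasmic reticulum that help class I fold, did not pass. H2 genes are similar in sequence, and how reads shared between them were assigned is not stated.

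Among secreted factors, Ccl12, a ligand of Ccr2, was high in every run. It was at 1524, 2043 and 2168 CPM against 91.6, 128 and 160 (3.94 ± 0.11, adjusted p 1.61e-251, edgeR), in 80.6% against 29.9% of cells. Ccl2, a related chemokine, was at 86.2, 32.8 and 105 CPM against 10.3, 14.4 and 18.9 (2.48 ± 0.30, adjusted p 8.13e-15). Cxcl9 and Cxcl10, ligands of Cxcr3, had some of the largest fitted rises (9.02 ± 0.40 and 7.0 ± 0.57), but they rested on few cells. Cxcl9 was at 55.4, 1087 and 33.4 CPM from 6 cells, 1 of which held 79.0% of its UMIs, and Cxcl10 at 30.8, 852 and 9.55 CPM from 8 cells, 1 of which held 80.9%. Ccl5 was at 109, 333 and 14.3 CPM against 7.60, 4.72 and 25.1, so run 3 went against runs 1 and 2. Of 9 chemokines tested 7 rose and none fell. Without cells holding 2 border markers 6 of 8 rose and 2 fell, and the latter were Ccl3 (-1.06) and Ccl4 (-0.86), which had differed by -0.16 and -0.30 before. Of 12 cytokine and growth factor genes 4 rose, and the count was 2 without those cells and 1 without run 1. Tnfsf13b, the B cell survival factor BAFF, was at 45.1, 60.1 and 52.5 CPM against 22.9, 21.6 and 34.0 (1.01 ± 0.28, adjusted p 0.00876), while Tnf (1.29 ± 0.86, adjusted p 0.592) and Il6 (0.42 ± 0.44, adjusted p 0.807) did not pass.

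At the cell surface, 11 of 14 listed interferon-induced receptors and membrane proteins rose and 1, Lag3 (-0.44, adjusted p 0.036, edgeR), fell. Without cells holding 2 border markers 10 of 13 rose and none fell, with Lag3 at -0.33 (adjusted p 0.244) and Cd274 at 2.19 (adjusted p 0.0567). Ly6e, a lipid-anchored surface protein, was at 1713, 2284 and 1819 CPM against 896, 1082 and 880 (1.02 ± 0.10, adjusted p 7.32e-21, edgeR). Fcgr1, the high-affinity receptor for IgG, was at 901, 1136 and 993 CPM against 477, 571 and 458 (1.00 ± 0.11). Axl, a receptor for phosphatidylserine-bound Gas6, was at 55.4, 60.1 and 66.9 CPM against 4.37, 2.85 and 4.03 (4.01 ± 0.53, adjusted p 2.72e-12), and its difference was 3.54 without cells holding 2 border markers.

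Homeostatic microglial genes stood lower, by small amounts. Of 17, 11 fell and none rose (median -0.37). Without cells holding 2 border markers 5 fell (median -0.22). Without cells holding 2 markers of another class 1 fell (median -0.21), with 9 lower at an unadjusted p under 0.05 in edgeR. When run 1 was left out 2 fell (median -0.39), with 11 lower at that unadjusted p. With no class II limit 16 fell (median -0.48). In cells thinned to 2000 UMIs 16 fell (median -0.59), where the median of all genes was -0.43. Without the run as a block none passed in edgeR, with a median of -0.39 and 7 of the 17 lower at an unadjusted p under 0.05, while the DESeq2 Wald test, which keeps the block, called 7 lower. Gpr34, a lysophosphatidylserine receptor, was at 1658, 1573 and 2025 CPM against 2604, 2688 and 2772, with no overlap (-0.62 ± 0.10, adjusted p 5.17e-08, edgeR; -0.48 without cells holding 2 border markers; adjusted p 0.0506 without the block). P2ry12 was at 2620, 3234 and 2736 CPM against 3742, 4949 and 3543, also with no overlap (-0.50 ± 0.10, adjusted p 1.48e-05; -0.35, adjusted p 0.0051, without cells holding 2 border markers). Siglech, a sialic acid-binding lectin, fell by 0.52 on the log2 scale. Tmem119 (-0.40, adjusted p 0.00349) lost its call without the cells holding 2 border markers, at -0.22 (adjusted p 0.265). Sall1 (-0.29, adjusted p 0.279) and Csf1r (-0.25, adjusted p 0.162) did not pass.

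Of 18 genes of the disease-associated microglial state tested, 8 rose and 1 fell (median 0.52), 5 rose without run 1, and 7 rose and none fell without cells holding 2 border markers. Apoe was at 5181, 9025 and 9732 CPM against 947, 989 and 1008 (2.97 ± 0.10, adjusted p 6.96e-181, edgeR), and its difference was 0.69 ± 0.10 (adjusted p 1.25e-10) without cells holding 2 border markers. Lyz2, lysozyme, was at 860, 6097 and 860 CPM against 204, 216 and 181 (3.08 ± 0.12), with 36.6% of its UMIs in 1 cell, and it did not pass without cells holding 2 markers of any other class (0.34, adjusted p 0.464). Trem2 (-0.30, adjusted p 0.0619) and its adaptor Tyrobp (0.03, adjusted p 0.961) did not pass. Cell cycle genes gave 9 rises among 16 tested, 10 without cells holding 2 border markers, 2 without run 1, 3 without run 2 and 0 of 11 in cells thinned to 2000 UMIs. All 16 were fitted above 0, with a median of 1.73. Stmn1, 1 of the 9, was at 127, 344 and 38.2 CPM against 59.3, 39.6 and 46.3 (1.64 ± 0.18, adjusted p 2.62e-18, edgeR). Its run 3 lay below the comparison cells, and 39.1% of its UMIs were in 1 cell. Of 15 immediate early genes 2 rose and 1 fell, and without cells holding 2 border markers 0 rose and 1 fell. Run 3 held these transcripts at a high level in both populations, 3925 CPM summed over the list in interferon-responsive and 5315 CPM in comparison cells, against 1254 to 1694 in the other runs. Whether sample handling moved with this was not tested.

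A rule of size asked for a change of at least 1, the same direction in all runs and at least 20 CPM where higher. Of the 11447 genes tested, 206 were called higher and met it. The 15 with the largest rise were Cxcl9, Oasl1, Ifit3b, Ifi211, Ifi206, Rsad2, Iigp1, Slfn1, Cxcl10, Ifi207, Zbp1, Ifi203, Cmpk2, Clec12a and Slfn5. Most of the 15 were under 1 CPM in the comparison cells of every run. These were Oasl1, Ifit3b, Ifi211, Ifi206, Rsad2, Iigp1, Slfn1, Cmpk2 and Clec12a. Genes that low in comparison cells could not have met the rule as falls. Oasl1, which represses translation of Irf7, was at 16.4, 49.2 and 47.8 CPM against 0.0317, 0.0851 and 0.0875 (8.89 ± 1.04, adjusted p 2.29e-15, edgeR). Clec12a, an inhibitory lectin receptor of myeloid cells, was at 8.21, 54.6 and 38.2 CPM against less than 1 in every run (6.43 ± 0.93, adjusted p 4.01e-10). Of genes that fell by at least 1, 9 met the rule, and the clearest of them was weak. Cc2d1b was at 16.4, 5.46 and 23.9 CPM against 46.1, 56.7 and 49.5 (-1.62 ± 0.33, adjusted p 5.15e-05). The others were Plcl1, Slco4a1, Arsk, Mttp, Stradb, Ppm1l, Atg14 and Med19. Each of the 9 rested on 8 to 19 UMIs in interferon-responsive cells and lost its call under at least 4 of the alternatives.

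Genes outside the rule also changed with the number of rule genes detected. This is a description, since deeper cells hold more detected genes and the bins are cut from the rule. Bst2 was at 147 ± 9.37 CPM (SD, n = 3) in cells with 0 of the 8, 209 ± 14.0 with 1, 339 ± 29.2 with 2 or 3, 868 ± 83.2 with 4 or 5 and 1024 ± 43.6 with 6 to 8. Ccl12 was flat at the low end and steep at the high end, at 124 ± 31.8, 146 ± 51.5, 261 ± 62.2, 858 ± 34.2 and 3825 ± 1321 CPM. In the top bin Ccl12 stood at 2301, 4629 and 4545 CPM in runs 1, 2 and 3, each above the 827 to 895 CPM of the cells with 4 or 5. H2-K1 did not keep that order, at 1192 ± 339 CPM with 4 or 5 and 883 ± 174 with 6 to 8, which overlap. Gpr34 went from 2706 ± 89.0 CPM with 0 to 1970 ± 354 with 4 or 5 and 1367 ± 119 with 6 to 8. The top bin held 28, 11 and 15 cells, and 14.3%, 9.09% and 26.7% of them had 2 border markers.

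**Figure D5:**
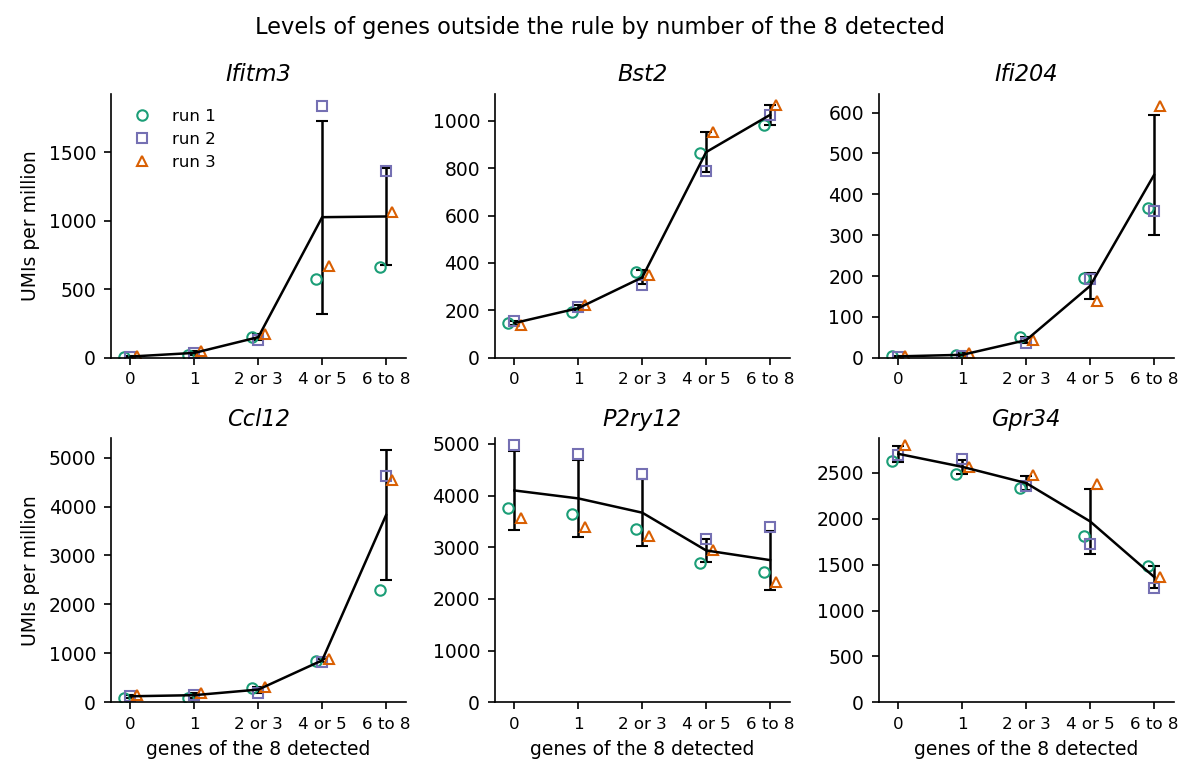
Level in CPM (linear axis from 0) against the number of rule genes detected per cell, in 5 bins, for 6 genes outside the rule; points are runs, lines join the means and bars are SD. Bst2 goes from 147 to 1024 CPM and Gpr34 from 2706 to 1367 CPM between the lowest and the highest bin, while Ccl12 changes most above 3 genes.

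Cells with 2 or 3 of the 8 genes, just under the threshold, were compared with the same comparison cells, so the 2 comparisons share their baseline and their values stand side by side only. Of 11691 genes, 208 were higher (1.78%) and 48 lower (0.411%; edgeR), and without cells holding 2 border markers 108 were higher (0.933%) and 13 lower (0.112%). Without run 1, 123 were higher and 14 lower. By the rule of size above, 49 genes rose. The 15 largest rises were C4b, Mgl2, F13a1, Slfn5, Ms4a7, Cd209f, Pf4, Cd163, Ifitm3, Clec10a, Lyve1, Ifi204, Mrc1, Pla2g7 and Cbr2. All 8 border macrophage markers rose (median 3.58), Pf4 by 3.74 and Mrc1 by 3.48. Without cells holding 2 border markers, which are chosen by these genes, Pf4 differed by 0.53 and Mrc1 by 0.95. Neither passed there. Bst2 was at 361, 306 and 350 CPM (1.13 ± 0.07, adjusted p 3.3e-26) and Ifitm3 at 150, 131 and 170 CPM (3.64 ± 0.12, adjusted p 3.19e-44). In interferon-responsive cells these differences were 2.58 and 6.29, and the gap between the 2 comparisons was not tested. Of 41 antiviral genes tested 27 rose (median 1.13), and 23 of 40 did without cells holding 2 border markers (median 1.04). Such cells were 29 of the 476 (6.09%). Of 17 homeostatic genes 7 fell, and without these cells none passed in edgeR, with 7 lower at an unadjusted p under 0.05. Ttr, which encodes a thyroid hormone carrier of the choroid plexus, was at 23.8, 9.13 and 8.03 CPM against 473, 906 and 105 (-4.98 ± 0.14), and without cells holding 2 markers of another class its difference was 0.24.

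Xist and Y-linked transcripts mark cells of female and male animals. Of cells with Xist and no Y-linked transcripts, 1.64% met the rule in run 1 (45 of 2740), 0.454% in run 2 (16 of 3526) and 0.591% in run 3 (15 of 2540). Of cells with Y-linked and no Xist transcripts, 0.552% (13 of 2355), 0.670% (9 of 1344) and 0.667% (11 of 1650) did. The difference was 0.266 ± 0.717 percentage points (SD, n = 3 runs; exact two-sided sign-flip permutation test, p = 1.0, where 3 runs cannot give less than 0.25). Run 1 had the largest difference, and without that run the value was -0.146. In cells thinned to 2000 UMIs, 0.663% of cells with Xist met the rule in run 1 (18 of 2716), 0.237% in run 2 and 0.201% in run 3. With Y-linked transcripts 0.128% (3 of 2344), 0.467% and 0.185% did. The difference in gene levels between interferon-responsive and comparison cells was larger in cells with Y-linked transcripts for 4 of 10168 genes (0.0393%) and smaller for 2 (0.0197%; edgeR, interaction term). Without cells holding 2 border markers these were 8 (0.0792%) and 7 (0.0693%) of 10102 genes, and without the run as a block none passed, with 454 at an unadjusted p under 0.05.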

How the data were processed

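The authors deposited gene-by-barcode tables of raw counts, 1 for each of 3 droplet runs of hippocampal tdTomato+ cells, in which each count is a UMI. Cell Ranger, Seurat 4.0 and mm10 are named in the submitters' processing notes, and the software version was 3.0.2 for run 1 and 3.1.0 for runs 2 and 3, per the file headers. The annotation used and how barcodes were selected are not given in the sources used here. The tables held 7255, 6895 and 6226 barcodes with at least 500, 501 and 500 UMIs, as found in the values, and 6993, 6720 and 6078 cells passed the filters, with 33547705, 24534691 and 24073809 UMIs. Pairs of runs shared 7, 8 and 8 barcodes, none of them of interferon-responsive cells.

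The members, gene lists and tests were chosen with earlier results of these data known. The sums of UMIs in each population of a run entered edgeR 4.0.16 (R 4.3.3; TMM, filterByExpr, quasi-likelihood test, adjusted p under 0.05, Benjamini-Hochberg over all genes tested) with the run as a block. The 8 rule genes and the 3 class II genes were left out of the test. The pairing comes from the library: both sums of a run share it. Over genes, which are no replicates, their departures from the population mean had correlations of 0.280, 0.276 and 0.229 in runs 1, 2 and 3 (intermediate cells 0.428, 0.468 and 0.387). EdgeR's common dispersion was 0.0114, with an infinite prior degree of freedom. The procedure was also run on simulated sums. These had no run effect and no UMIs gathered in single cells. Their dispersion was smaller than the 0.0114 above and larger than that of the other tests. They do not show how far calls hold under the spread of these data.

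CPM were computed from the deposited counts. Genes were named when they had an adjusted p under 0.05, a log2 difference of 1 or more, 20 or more CPM where they were higher and 1 direction in 3 runs, at most 15 per direction, leaving out ribosomal, mitochondrial and unnamed genes. List genes could be named from 5 CPM. Of 31053 gene IDs, 31011 (99.9%) were found in GENCODE M21 (GRCm38). Shares have exact binomial intervals at 95%, and where nothing was counted the limit is that of 3 counts. Sex-linked classes needed at least 2 Xist UMIs and no UMI of 4 Y-linked genes, or at least 1 Y-linked UMI and no Xist. Alternatives were DESeq2 1.42.0 size factors and Wald test, no filter on low counts, no block, each run left out, thinning to 2000 UMIs, a window of 3000 to 6000 UMIs, other numbers of rule genes, no class II limit, comparison cells with 0 of the 8, a stricter cell filter (at least 2000 UMIs and at most 5% mitochondrial) and leaving out cells with Xist and Y-linked UMIs or with 2 markers of another class. Leaving out cells with 2 border macrophage markers was added after the data had been seen. Some genes of the lists are not reported here.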

Additional observations from a re-analysis of the deposited data

Results flagged for a closer look

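Cells above the class II limit were outside the comparisons. Among these 114 cells, 26 held 4 or more of the 8 rule genes (22.8%, exact 95% binomial interval 15.5 to 31.6%; 26.3%, 33.3% and 13% in runs 1, 2 and 3), against 155 of 19677 cells below the limit (0.788%). Their median depth was 6191.5 UMIs against 3836, and 19 of the 26 held at least 2 border macrophage markers, as did 74 of the 114. The part of depth and of border macrophage transcripts in this share was not tested.

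The difference between interferon-responsive and comparison cells was itself compared between cells with Y-linked and cells with Xist transcripts. Of 10168 genes, 6 passed in edgeR's quasi-likelihood test with the run as a block (4 larger and 2 smaller with Y-linked transcripts), on 33 interferon-responsive cells with Y-linked and 76 with Xist transcripts. With DESeq2 size factors 3 passed, all larger in cells with Y-linked transcripts. For Apoe the difference was 1.5 higher with Y-linked transcripts (log2, adjusted p 6.57e-07, edgeR). It stood at 8045, 27338 and 12476 CPM in those cells and at 3953, 1987 and 8629 CPM in cells with Xist transcripts. That difference was -1.55 without cells holding 2 border macrophage markers. Ccl5 differed by 2.66, from 41 UMIs in 2 cells with Y-linked and 20 UMIs in 4 cells with Xist transcripts. Cd74, the class II invariant chain, differed by 2.81, and run 2 stood apart, at 3673 CPM in cells with Y-linked transcripts. Cxcl10 differed by 5.61, with 140 of 143 UMIs of the cells with Y-linked transcripts in 1 cell. H2afx, a histone gene, differed by -4.55, with 33 of 39 UMIs of the cells with Xist transcripts in 1 cell. Tubb5, a tubulin gene, differed by -1.27.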

How the results depend on the processing

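The 522 genes called in interferon-responsive cells became 264 with no replicate block (262 higher, 2 lower), 252 in cells thinned to 2000 UMIs (126 higher, 126 lower), 225 in cells of 3000 to 6000 UMIs, 924 with no class II limit, 320 without cells with 2 border macrophage markers, 218 without cells with 2 markers of another class, and 273 to 399 without 1 run, the lowest without replicate 1. Thinning moved the median of all genes to -0.43 and no filter on low counts to -0.36. The DESeq2 Wald test called 349 (324 higher, 25 lower). The block pairs sums of the same library. The 256 genes of cells with 2 or 3 rule genes became 73 with no replicate block, 158 with the DESeq2 Wald test, 128 at 3000 to 6000 UMIs, 121 without border-marker cells, 91 without cells of another class and 137 to 215 without 1 run. The 6 genes that differed between cells with Y-linked and with Xist transcripts became 0 with no replicate block and 0 with the DESeq2 Wald test (454 and 361 genes at an unadjusted p under 0.05), 3 with DESeq2 size factors, 11 with no filter on low counts, 15 without border-marker cells and 8 to 10 without 1 run.

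The mean share of 0.777% was 1.30% with at least 3 and 0.465% with at least 5 rule genes, 0.329% after thinning and 0.636% to 0.883% without 1 run. The difference in share between cells with Xist and with Y-linked transcripts ranged from -0.146 to 0.507 points without 1 run.

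Signs turned for Ttr in cells with 2 or 3 rule genes (0.24) and for the Apoe difference between sex-linked classes (-1.26) without cells with 2 markers of another class. Without border-marker cells they turned for Fos (-1.35), for Apoe in cells with 2 or 3 rule genes (-0.015) and for Apoe between sex-linked classes (-1.55). Stmn1 turned after thinning (-0.078) and Cxcl10 between sex-linked classes without replicate 2 (-0.97, within a range to 5.42 without 1 run). S100a4 turned without replicate 2 (-0.38, within a range to 5.16 without 1 run), at 3000 to 6000 UMIs (-0.48) and without cells with 2 markers of another class (-0.48). Except where fewer cells or genes entered by construction, the cause was not tested. Depth limits the rule: a cell with 4 of the genes held a median of 6 of their UMIs.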
